A study of Mus musculus with 6 samples.

Results

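Imprinted genes are expressed mainly from the copy inherited from 1 parent. The genes described here are 10 listed imprinted genes, Igf2, H19, Cdkn1c, Grb10, Mest, Peg3, Plagl1, Meg3, Dlk1 and Nnat, out of 36564 genes with a value in the hearts studied. RNA was sequenced from 3 hearts of ApoE-/- Timp3-/- mice (libraries 4, 5 and 6, the double mutants) and from 3 hearts of ApoE-/- mice (libraries 1, 2 and 3, the controls), all aged 32 weeks. Every mouse therefore carried the mutation of Apoe, which encodes a carrier protein of blood lipids, and the double mutants also that of Timp3, which encodes a secreted inhibitor of metalloproteinases. Total RNA was extracted with Trizol and sequenced after a standard Illumina library preparation. The genes were chosen by their FPKM in the 2 genotypes, the exact zeros of Mest among them, so the differences of its members between genotypes are given as a description. The fit over all genes is used for them only to set a count beside its background.

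The parental copies of an imprinted gene are told apart by DNA methylation or other marks set in the egg or sperm and kept through development. Many imprinted genes act on growth before birth: Igf2 promotes it, and Grb10, Cdkn1c and H19 restrain it. Their expression in most mouse tissues, the heart among them, declines steeply after birth. The sequencing does not separate the parental copies, so the values below are the sum of both.

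Levels are given as FPKM (sequenced fragments divided by transcript length and by the mapped total of the library) summed over the transcripts of a gene. Values of single libraries are as deposited, and means are of FPKM after median-of-ratios scaling. Differences are of log2(scaled FPKM + 1), double mutants minus controls. Depth, as coverage times transcript length, was 910, 732 and 683 aligned megabases in double-mutant libraries 4, 5 and 6 and 654, 1339 and 827 in control libraries 1, 2 and 3. Timp3 itself was listed at 20.2, 28.0 and 29.6 FPKM in the double mutants and at 52.1, 38.0 and 36.3 in the controls, a log2 difference of -0.61 (adjusted p = 0.29 by limma over all genes), so its transcript was not lost. The deleted stretch of Timp3 is not stated by the labels, so what remains of the transcript is no check of the labels. Apoe stood at 3.50, 2.08 and 1.84 FPKM in the double mutants and at 4.15, 2.29 and 2.85 in the controls. All 9 cardiomyocyte markers were detected, with summed scaled FPKM of 20301 to 25897 in the double mutants and 16899 to 21898 in the controls. The atrial markers differed far more between hearts, with sums of 173, 972 and 1439 in double-mutant libraries 4, 5 and 6 and of 1455, 809 and 122 in control libraries 1, 2 and 3. Red cell markers summed to 12226 in library 4 and to between 113 and 1192 in the other libraries. Adipocyte markers summed to 190 in library 1 and to between 9.55 and 36.4 in the others. In whole-heart RNA, fewer cells of a type and less RNA per cell cannot be told apart.

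Mest, a gene expressed from the paternal copy that encodes a protein of the alpha/beta hydrolase fold, gave the sharpest contrast. The gene (ENSMUSG00000051855, chromosome 6, 30673547 to 30698457, plus strand, build NCBIM37) was listed at exactly 0 in double-mutant libraries 4, 5 and 6 and at 2.58, 3.20 and 1.54 FPKM in control libraries 1, 2 and 3. Every double mutant was thus listed at 0 and every control above 0, and no fold is given against a group at 0. Among the 11381 genes tested across genotypes, 3 (0.0264%) were listed at 0 in all double mutants and above 0 in all controls, and Mest was 1 of them. A listed 0 in any library occurred in 2.64% of the tested genes, and Mest was the only such gene of the 10. The reverse pattern held for 4 genes (0.0351%).

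The reference transcript behind Mest in 2 of the controls was Mest-211 (ENSMUST00000163949, 2551 nt), whose first bases lie in the RefSeq promoter window shown here because its product accounts for Mest in libraries 2 and 3. The window, chr6:30737800-30738099 of build GRCm38.p6, plus strand, spans 250 bases before to 50 bases after the annotated start, and capitals mark matches to the hexamer TGCCGC on either strand. When methylated, that hexamer is bound by ZFP57, a zinc finger protein that preserves imprinting marks in the early embryo.
Mest: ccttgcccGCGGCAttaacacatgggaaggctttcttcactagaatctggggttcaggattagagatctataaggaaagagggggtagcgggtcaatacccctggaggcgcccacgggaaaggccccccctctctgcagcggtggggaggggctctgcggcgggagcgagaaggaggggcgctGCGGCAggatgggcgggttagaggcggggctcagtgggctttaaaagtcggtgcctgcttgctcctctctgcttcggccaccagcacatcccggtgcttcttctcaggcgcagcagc
The window held 2 hexamer matches and 17 CG dinucleotides. Of 32851 RefSeq mouse promoter windows of the same length, 11.6% held the hexamer and 31.4% held at least 17 CG. Windows were found for 8 of the 10 listed genes, and 7 of their 15 windows held it, 2 Mest windows that share all but 3 bases included. A match is a description of the letters in the window and says nothing of binding in these hearts.

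The zeros were checked against the transcripts. Of 13 reference transcripts of Mest, Mest-211 was the only one above 0 in any library, at 3.20 FPKM (deposited interval 2.74 to 3.67) in library 2 and 1.54 FPKM (1.13 to 1.94) in library 3. On reference transcripts alone, Mest was thus at 0 in control library 1 as well as in the double mutants. In library 1 the whole value came from a transcript assembled in that library, 2715 nt long, at 2.58 FPKM (1.92 to 3.24). That transcript had 10 exons, and its 9 introns were all introns of Mest-211, which has 12 exons. The aligned sequence behind these values was small, 7.93 kilobases in library 1, 20.1 in library 2 and 6.26 in library 3. No assembled transcript was given to Mest in any double mutant.

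Copg2, which encodes a coat protein of Golgi transport vesicles, runs on the minus strand into the end of Mest. Its reference transcript Copg2-201 shares 904 nt with exons of the Mest reference transcripts. Copg2-201 was listed at 4.23, 1.59 and 1.88 FPKM in double-mutant libraries 4, 5 and 6 and at 3.39, 4.54 and 4.86 in control libraries 1, 2 and 3. Assembled Copg2 transcripts with a longer last exon share 1375, 1406 and 1397 nt with the same Mest exons. They were listed at 1.56 FPKM in library 5, 1.98 in library 6 and 1.59 in library 1. These are the only transcripts of another gene above 0 that overlap exons of the Mest reference transcripts. The last exon of the Mest transcript assembled in library 1 is longer, from 8.999 to 10.939 kb after the start of Mest-211. An exon of a further Copg2 transcript with a value, ENSMUST00000026697, lies within it at 10.746 to 10.934 kb. The labels do not say whether counting used strand. Signal over the last exon of Mest, 1404 nt long in Mest-211, and over Copg2 therefore cannot be told apart. Summed over its transcripts, Copg2 stood at 6.39, 5.16 and 7.09 FPKM in the double mutants and at 7.42, 5.87 and 4.86 in the controls. The Copg2 values of the genotypes overlapped (log2 difference 0.10, 95% interval -0.18 to 0.39, adjusted p = 0.78 by limma).

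**Figure D1:**
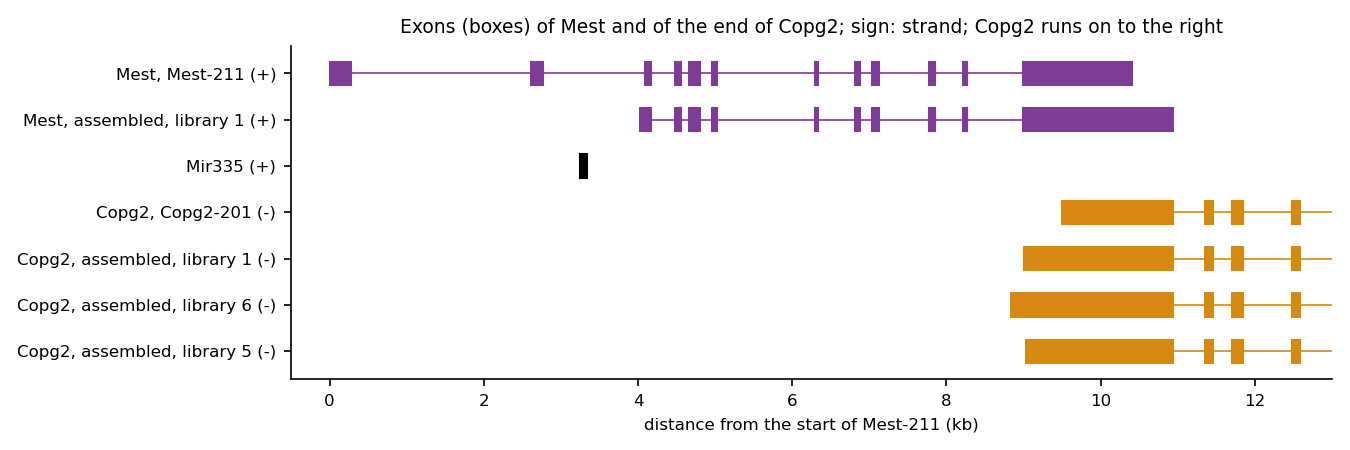
Exons of Mest and of the end of Copg2 by distance in kilobases from the start of Mest-211, with 1 row per transcript and the strand in brackets. The long last exons of both genes lie over each other, and the microRNA gene Mir335 lies in an intron of Mest-211.

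An exact 0 in these files can be a failed estimate. Mrpl44, which encodes a protein of the mitochondrial ribosome present in nearly every cell, had 35.4, 30.7 and 33.5 FPKM in the double mutants and 0, 38.9 and 0 FPKM in control libraries 1, 2 and 3. A second attribute was set beside the zeros. Cufflinks marks a reference transcript as fully supported where reads cover all of its introns and internal exons. The only Mrpl44 transcript carried the mark in all 6 libraries, those at 0 included. For Mest, none of the 13 reference transcripts carried the mark in any double mutant, while 4 carried it in library 1, 5 in library 2 and none in library 3, where Mest had a value. Mest-211 carried the mark in control library 1, where that transcript was itself listed at 0 FPKM. The mark was thus absent in all 3 libraries where the sum for Mest was 0, and also in 1 library at 1.54 FPKM.

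Over all tested genes, 525 pairs of a gene and a library were at 0, and in 63.2% of them at least 1 reference transcript carried the mark. At 1 to 4 FPKM, the range of Mest in the controls, the share was 54.8% of 26160 pairs. Of the 6 other genes at 0 in all libraries of 1 genotype and above 0 in the other, 4 carried the mark in at least 1 library at 0. Mapkapk5, for example, was listed at 0 in the double mutants with 8, 8 and 7 of its 13 transcripts marked, and at 12.1, 14.1 and 19.1 FPKM in the controls. Cfhr2 was like Mest in having no mark in the double mutants, but it had none in the controls either, at 4.72, 2.22 and 2.97 FPKM. Mrpl44, Mapkapk5 and Cfhr2 were chosen after their values were seen. Whether the zeros of Mest stand for absent RNA or for a failed estimate was not tested.

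**Figure D2:**
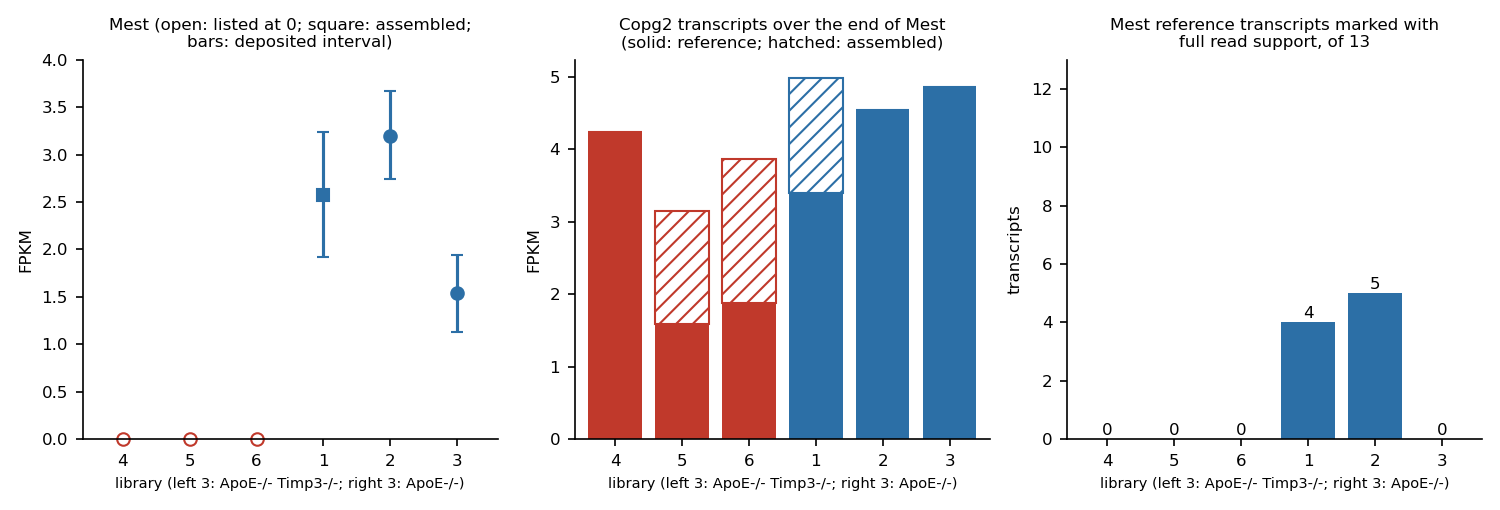
Left, FPKM of the Mest transcript with a value in each library, with its deposited interval; middle, FPKM of the Copg2 transcripts over the end of Mest; right, number of the 13 Mest reference transcripts marked with full read support. Double mutants (libraries 4, 5 and 6) stand left of controls (libraries 1, 2 and 3); Mest was listed at 0 in each double mutant, while Copg2 had a value in every library.

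Depth and cell content beside Mest were as follows. Library 3, with the lowest value above 0, had 827 aligned megabases, which lies between the depths of the double mutants. Adipocyte markers summed to 9.55, 36.4 and 9.56 scaled FPKM in double-mutant libraries 4, 5 and 6 and to 190, 11.7 and 9.92 in control libraries 1, 2 and 3. The part of depth and of fat content in the zeros was not tested. Mir335, which lies in an intron of Mest, was listed at 0 in all 6 libraries, as were all 13 microRNA genes in or beside the listed genes. Its mature products are shown because Mest-211, which spans Mir335, had a value in control libraries 2 and 3, with the seed (bases 2 to 8) in capitals, RefSeq, GRCm38.p6.
miR-335-5p: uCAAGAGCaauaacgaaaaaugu
miR-335-3p: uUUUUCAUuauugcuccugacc
The labels name no small-RNA library, so the listed zeros say nothing of mature microRNA levels.

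Igf2 and H19 are neighbours on chromosome 7 under a shared control region, with Igf2 expressed from the paternal and H19 from the maternal copy. Igf2, a growth factor that acts through the IGF1 and insulin receptors, lies at 149836673 to 149852721 (ENSMUSG00000048583, minus strand). It was listed at 6.04, 5.48 and 11.5 FPKM in double-mutant libraries 4, 5 and 6 and at 6.76, 2.96 and 4.48 in control libraries 1, 2 and 3. The deposited values overlapped, with library 1 above libraries 4 and 5. The scaled means were 7.81 ± 3.12 in the double mutants and 4.53 ± 1.46 in the controls (SD, n = 3 each; log2 difference 0.65). After scaling the groups no longer overlapped, by the narrow margin of 5.90 in double-mutant library 4 against 5.79 in control library 1.

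Igf2 transcripts start at several promoters, and 2 windows of transcripts with a value are shown to set beside the split of FPKM by 5′ end (RefSeq, GRCm38.p6, minus strand, chr7:142657447-142657746 and chr7:142661222-142661521, with the hexamer in capitals).
Igf2, start of Igf2-201 and Igf2-202: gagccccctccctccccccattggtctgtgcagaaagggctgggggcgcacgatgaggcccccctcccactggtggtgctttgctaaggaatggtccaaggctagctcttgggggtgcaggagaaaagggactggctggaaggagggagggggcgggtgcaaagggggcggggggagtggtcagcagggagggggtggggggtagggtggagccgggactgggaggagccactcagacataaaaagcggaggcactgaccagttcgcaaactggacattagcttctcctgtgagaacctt
Igf2, start of Igf2-204: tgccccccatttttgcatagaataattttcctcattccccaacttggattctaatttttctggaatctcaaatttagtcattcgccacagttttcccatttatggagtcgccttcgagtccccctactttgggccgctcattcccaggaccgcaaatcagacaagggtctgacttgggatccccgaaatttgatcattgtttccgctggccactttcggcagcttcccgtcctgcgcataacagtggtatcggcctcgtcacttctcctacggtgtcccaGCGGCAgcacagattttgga
The start of Igf2-201 was the most used in 5 of the 6 libraries. Transcripts from that start held 4.11, 4.69 and 7.65 FPKM in double-mutant libraries 4, 5 and 6 and 5.15, 2.09 and 0.693 in control libraries 1, 2 and 3. That was 67.9%, 85.7% and 66.3% of Igf2 in the double mutants and 76.2%, 70.7% and 15.5% in the controls. Only control library 3 lay far from the rest, with 42.3% of its Igf2 in an assembled transcript with a start farther upstream. Transcripts with the start of Igf2-204 had a value in 3 libraries, at 0.956 FPKM in library 4, 1.56 in library 6 and 0.578 in library 3. The first window held 7 CG and no hexamer match, and the second held 14 CG and 1 match. Assembled transcripts made up 0%, 0% and 35.6% of Igf2 in the double mutants and 55.6%, 70.7% and 59.9% in the controls. On reference transcripts alone the log2 difference was therefore 1.44, more than the 0.65 of the full sum.

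H19, a long noncoding RNA that is abundant in embryonic tissue (ENSMUSG00000000031, 149761434 to 149764048, minus strand), was listed at 10.8, 6.36 and 13.4 FPKM in double-mutant libraries 4, 5 and 6 and at 14.9, 4.77 and 5.59 in control libraries 1, 2 and 3. Library 1 was the highest of all and libraries 2 and 3 the lowest, so the genotypes overlapped. The scaled means were 10.3 ± 3.07 in the double mutants and 7.86 ± 4.31 in the controls (SD, n = 3 each; log2 difference 0.42). Of its 5 reference transcripts, H19-202 and H19-205 carried the whole value, and 3 of the 5 were fully supported in every library. H19 exceeded Igf2 in each heart, with ratios of 1.78, 1.16 and 1.16 in the double mutants and 2.21, 1.61 and 1.25 in the controls.

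Libraries 5, 6 and 1 were the shallowest and also had the highest levels of Myl7 and Sln, which mark atrial muscle. Myl7 stood at 13.4, 173 and 229 FPKM in double-mutant libraries 4, 5 and 6 and at 409, 2.09 and 1.21 in control libraries 1, 2 and 3. Bmp10, another of the atrial markers, set library 1 apart from libraries 5 and 6. Its FPKM was 0, 10.1 and 32.5 in double-mutant libraries 4, 5 and 6 and 0.477, 0.0217 and 0.167 in control libraries 1, 2 and 3. Atrial-rich here means high in Myl7 and Sln. Set side by side within these levels of atrial RNA, H19 was 6.36 and 13.4 FPKM in double-mutant libraries 5 and 6 against 14.9 in control library 1, and 10.8 in double-mutant library 4 against 4.77 and 5.59 in control libraries 2 and 3. Igf2 was 5.48 and 11.5 against 6.76 in the atrial-rich libraries and 6.04 against 2.96 and 4.48 in the others, the double mutants given before the controls. The deposited H19 of the double mutants thus lay below the control in the atrial-rich libraries and above the controls in the others. After scaling library 6, at 13.2, lay just above library 1, at 12.8. The part of atrial content in either result was not tested.

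**Figure D3:**
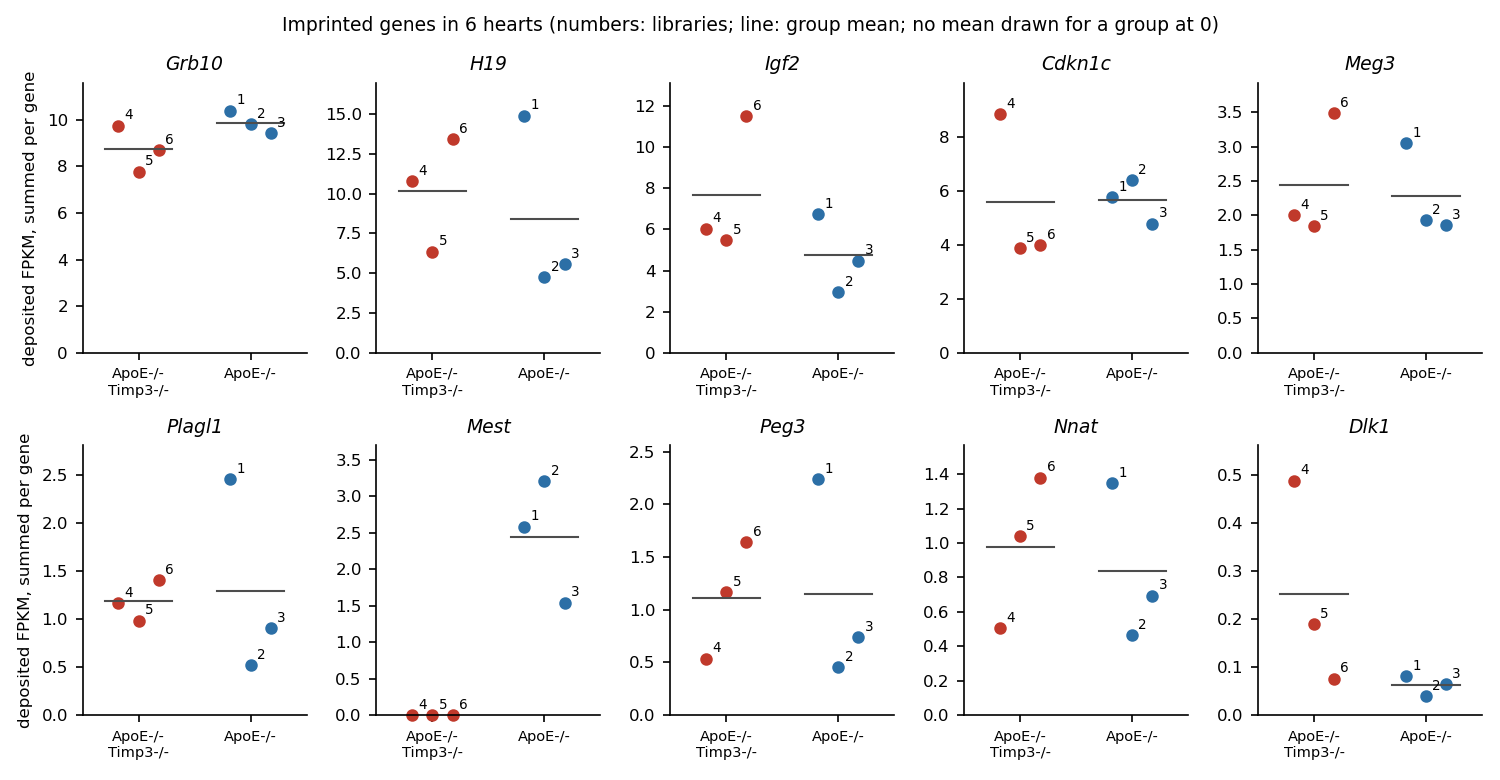
Deposited FPKM of the 10 listed imprinted genes in each library, double mutants left of controls, with the library number beside each point and a line at the group mean. Mest is the gene at 0 in every double mutant. Library 1 or 6 is the highest for H19, Igf2, Meg3, Plagl1, Peg3, Nnat and Grb10.

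Cdkn1c and Grb10 are maternally expressed inhibitors of growth, of which Grb10 is paternally expressed in neurons. Cdkn1c, which encodes the cyclin-dependent kinase inhibitor p57 (ENSMUSG00000037664, chromosome 7, 150644255 to 150646955, minus strand), was listed at 8.84, 3.88 and 3.99 FPKM in double-mutant libraries 4, 5 and 6 and at 5.76, 6.40 and 4.79 in control libraries 1, 2 and 3. The double mutants held both the highest value, in library 4, and the lowest, in library 5. The scaled means were 5.63 ± 2.60 in the double mutants and 5.50 ± 0.757 in the controls (SD, n = 3 each). The log2 difference was -0.03, so the means and the means of log2 values differ in sign. Library 4 was also the library with the most red cell RNA and the least atrial RNA among the double mutants, and the part of either was not tested.

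Grb10 encodes an adaptor protein that dampens insulin and IGF1 receptor signalling (ENSMUSG00000020176, chromosome 11, 11830511 to 11938686, minus strand). It was listed at 9.75, 7.78 and 8.71 FPKM in double-mutant libraries 4, 5 and 6 and at 10.4, 9.83 and 9.43 in control libraries 1, 2 and 3. Library 4 lay among the controls, and libraries 5 and 6 lay below them. Scaled, Grb10 averaged 8.93 ± 0.510 in the double mutants and 9.62 ± 0.688 in the controls (SD, n = 3 each; log2 difference -0.10). Grb10 was the steadiest of the listed genes, with its highest scaled value 1.19 times its lowest over the 6 libraries. Assembled transcripts, most of their FPKM at the 3′ end of the gene, made up 60.0%, 33.1% and 41.4% of it in the double mutants and 44.2%, 67.4% and 42.2% in the controls.

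Peg3, Plagl1, Meg3, Dlk1 and Nnat were low in these hearts. Peg3, a paternally expressed zinc finger gene with a role in maternal behaviour and growth (ENSMUSG00000002265, chromosome 7, 6656603 to 6683132, minus strand), was listed at 0.536, 1.17 and 1.64 FPKM in double-mutant libraries 4, 5 and 6 and at 2.24, 0.454 and 0.741 in control libraries 1, 2 and 3. The genotypes overlapped, with the highest and the lowest value both among the controls. Scaled, Peg3 averaged 1.15 ± 0.564 in the double mutants and 1.06 ± 0.768 in the controls (SD, n = 3 each; log2 difference 0.09). The reference transcript Peg3-201 was the only 1 of 5 above 0.

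Plagl1 encodes a zinc finger transcription factor, known in mouse as a regulator of a network of imprinted genes (ENSMUSG00000019817, chromosome 10, 12810497 to 12851500, plus strand). It was listed at 1.17, 0.983 and 1.41 FPKM in double-mutant libraries 4, 5 and 6 and at 2.46, 0.520 and 0.909 in control libraries 1, 2 and 3. The 3 double mutants lay between the highest and the lowest control. Plagl1 had scaled means of 1.21 ± 0.159 in the double mutants and 1.20 ± 0.819 in the controls (SD, n = 3 each; log2 difference 0.07). Transcripts assembled on the opposite strand over its last exon were listed at 1.51 FPKM in library 4, 1.41 in library 6 and 0.434 in library 2, and were not counted with Plagl1.

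Meg3 and Dlk1 share a domain on chromosome 12, with Meg3, a long noncoding RNA, expressed from the maternal copy and Dlk1, a transmembrane protein related to Notch ligands that inhibits the maturation of fat cells, from the paternal copy. Meg3 (ENSMUSG00000021268, 110779211 to 110809936, plus strand) was listed at 2.00, 1.85 and 3.49 FPKM in double-mutant libraries 4, 5 and 6 and at 3.05, 1.93 and 1.86 in control libraries 1, 2 and 3. Libraries 6 and 1 stood above the others, 1 in each genotype. Meg3 had scaled means of 2.49 ± 0.835 in the double mutants and 2.18 ± 0.375 in the controls (SD, n = 3 each; log2 difference 0.11). Between 56.6% and 100% of Meg3 in a library came from assembled transcripts. Transcripts of unknown strand that overlapped Meg3 were not treated alike in all libraries. In library 2 a transcript of this kind at 0.763 FPKM was counted with Meg3. Those in libraries 4, 1 and 3, at 1.54, 2.74 and 1.22 FPKM, were given to no gene. The part of this in the Meg3 values was not tested.

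Dlk1 (ENSMUSG00000040856, 110691033 to 110701546, plus strand) was at 0.488, 0.189 and 0.0760 FPKM in double-mutant libraries 4, 5 and 6 and at 0.0817, 0.0390 and 0.0650 in control libraries 1, 2 and 3. After scaling the groups did not overlap, but none of its 10 reference transcripts was fully supported in any library, and it fell below the filter of a mean of 1 FPKM. Nnat, which encodes a small membrane protein of the endoplasmic reticulum and lies inside Blcap (ENSMUSG00000067786, chromosome 2, 157385814 to 157388258, plus strand), was also below it. Nnat stood at 0.505, 1.04 and 1.38 FPKM in double-mutant libraries 4, 5 and 6 and at 1.35, 0.464 and 0.694 in control libraries 1, 2 and 3. Its genotypes overlapped, while Blcap, on the other strand, stood at 22.4, 22.7 and 23.3 FPKM in the double mutants and at 21.3, 19.3 and 19.4 in the controls.

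Of the 10 listed genes, 8 passed the filter and 2, Dlk1 and Nnat, did not. Of those 8, none passed limma at an adjusted p under 0.05, against 0.0439% of all 11381 genes tested (5 genes, 0.0264% upward and 0.0176% downward), and 1 of them, Mest, had an unadjusted p under 0.05, against 12.2% of all tested genes. The genes were chosen on this contrast, so these counts are no test of them and nothing is read from them. Over all 10, 7 log2 differences were above 0 and 3 below, where 48.8% of all tested genes were above 0. Dlk1 and Nnat, both above 0, were not among the tested genes. The groups did not overlap after scaling for Mest, Igf2 and Dlk1. Of the 8 tested genes this held for 2, Mest and Igf2, beside 19.2% of all tested genes, 9.97% upward and 9.22% downward.

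In order of the scaled mean over the 6 libraries, Grb10 led at 9.28 ± 0.661, followed by H19 at 9.07 ± 3.60, Igf2 at 6.17 ± 2.82 and Cdkn1c at 5.56 ± 1.72 (SD, n = 6). Meg3 followed at 2.33 ± 0.603, then Plagl1 at 1.21 ± 0.528, Mest with values from 0 to 3.18, Peg3 at 1.10 ± 0.605, Nnat at 0.898 ± 0.381 and Dlk1 at 0.157 ± 0.168. Between neighbours in this order the ranges of the 6 libraries overlapped in every case but Cdkn1c and Meg3. The spread of single genes differed widely. The highest scaled value was 12.3 times the lowest for Dlk1, 4.26 times for Peg3, 4.09 times for Plagl1, 3.88 times for Igf2 and 1.80 times for Meg3. The ratio for Dlk1 rests on values near 0, from 0.0387 to 0.477 scaled FPKM.

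Levels of Peg3 ran in the reverse order of depth. In rising order of depth, libraries 1, 6, 5, 3, 4 and 2 had scaled Peg3 values of 1.92, 1.62, 1.30, 0.804, 0.524 and 0.451. Spearman's rho was -1 (exact permutation p = 0.0028, the smallest that 6 libraries allow) and Pearson's r was -0.80 (exact permutation p = 0.021). Both p came to 0.36 after adjustment over the 11081 genes with no library at 0, of which 26 (0.235%) had a rho of -1. Without libraries 2 and 4, the farthest from the median depth, r was -0.99. Of the 9 listed genes with no library at 0, Meg3 came closest to Peg3 by rank, with a rho of -0.94 (exact permutation p = 0.017) and an r of -0.56 (exact permutation p = 0.18, and -0.66 without libraries 2 and 4), for adjusted p of 0.36 and 0.63. By Pearson's r it was not Meg3 but Nnat, at -0.81 (exact permutation p = 0.011, not adjusted because Nnat was below the filter, and -0.86 without libraries 2 and 4), with a rho of -0.83 (exact permutation p = 0.058). Plagl1 had an r of -0.79 (exact permutation p = 0.092, adjusted 0.51, and -0.82 without libraries 2 and 4) and a rho of -0.83 (exact permutation p = 0.058, adjusted 0.45). H19 and Igf2 also fell with depth, with a rho of -0.77 and -0.54 (exact permutation p = 0.1 and 0.3). Cdkn1c and Grb10 went the other way, with a rho of 0.77 and 0.66 (exact permutation p = 0.1 and 0.17). Dlk1 had a rho of -0.03. The Meg3 sums did not treat overlapping transcripts of unknown strand alike in all libraries, as given above. The part of this in the rank order of Meg3 was not tested.

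The shallow libraries 1, 5 and 6 are also those rich in Myl7 and Sln, so depth and this atrial content cannot be told apart here. Nppa, a hormone gene of the same marker list, split the libraries otherwise, at 142, 491 and 852 FPKM in double-mutant libraries 4, 5 and 6 and at 823, 802 and 104 in control libraries 1, 2 and 3. With Nppa in the sum, library 2 came close to library 5. Bmp10, as given above, was far lower in library 1 than in libraries 5 and 6. Peg3, Nnat and Meg3 after scaling were each higher in libraries 1, 5 and 6 than in libraries 2, 3 and 4. For Meg3 this holds only for the sums as formed here, with the limit on transcripts of unknown strand given above. Within the 3 atrial-rich libraries Peg3 was 1.30 and 1.62 in double-mutant libraries 5 and 6 and 1.92 in control library 1, and within the others 0.524 in double-mutant library 4 and 0.451 and 0.804 in control libraries 2 and 3. Markers of neurons and glia summed to 6.84, 7.36 and 6.64 scaled FPKM in double-mutant libraries 4, 5 and 6 and to 11.9, 3.93 and 4.26 in control libraries 1, 2 and 3, and their part in these patterns was not tested.

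**Figure D4:**
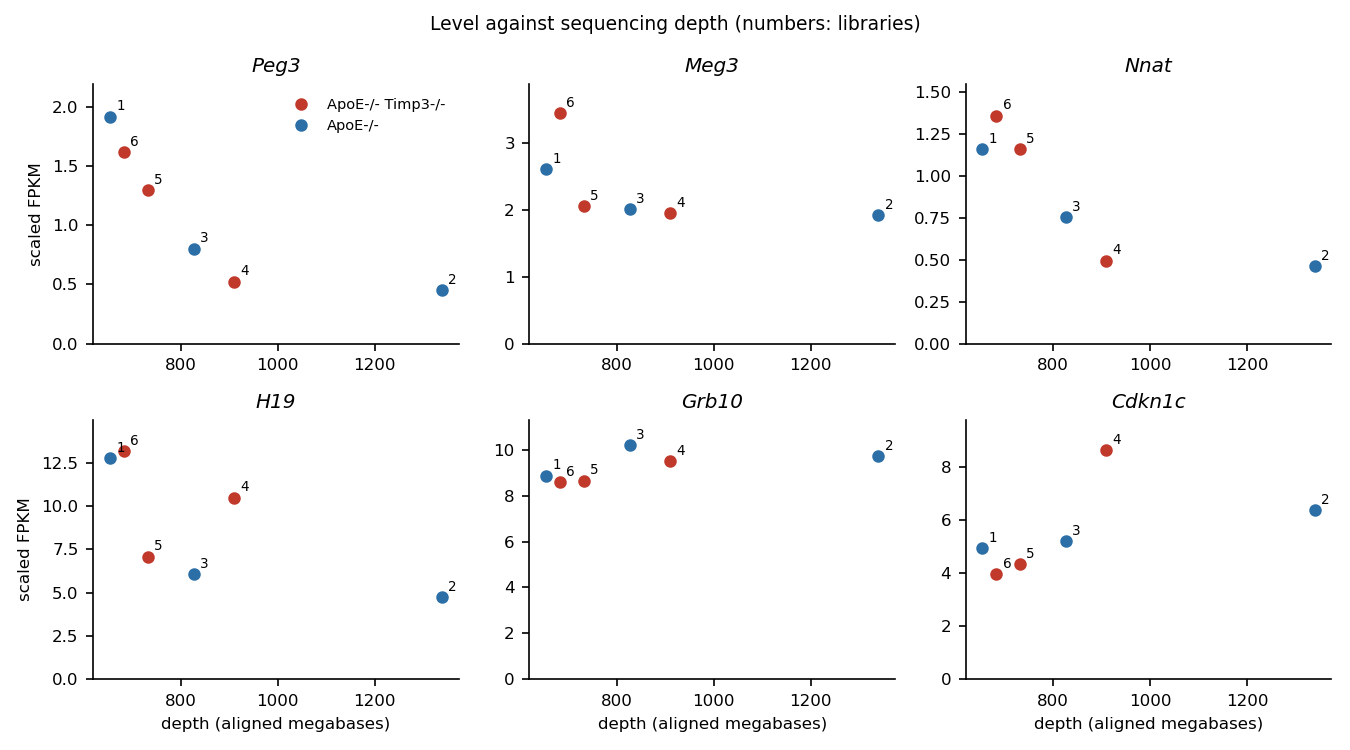
Scaled FPKM of 6 listed genes against depth in aligned megabases, 1 point per library, coloured by genotype and labelled by library number. Peg3 descends from 1.92 in library 1 to 0.451 in library 2 without a break in order, whereas Grb10 stays between 8.60 and 10.2.

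Of all tested genes, those with centred profiles closest to a listed gene over the 6 libraries were taken, by the mean absolute difference in log2(scaled FPKM + 1). For Peg3 they were Etv1 (0.058) and Syde2 (0.077). For Plagl1 C1s1 is given (0.064). For H19 they were Fry (0.13) and Gcn1l1 (0.19), for Igf2 Gm10259 (0.085) and Ptpn3 (0.12), and for Meg3 Mtss1 (0.037) and Gm8258 (0.045). Cdkn1c was closest to Sertad1 (0.053) and Cyb5rl (0.055), and Grb10 to Ric8a (0.015) and Rundc1 (0.021).

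Imprinted genes outside the listed 10 were set beside them. Of 63 other imprinted genes, 57 were in the files and 29 passed the filter on low values. A place on this list does not show imprinting in the adult heart, because the sequencing does not separate the parental copies. None passed limma in either direction over all genes, and the lowest adjusted p was 0.26. At an unadjusted p under 0.05 there was 1 in each direction, against 6.94% of all tested genes upward and 5.21% downward (12.2% in all). Their median log2 difference was 0.08, with 20 above 0 and 9 below. The median of all tested genes was -0.01, with 48.8% above 0. P-values here set a difference between genotypes against the spread of hearts within them, which limma moderates over all genes. The labels describe these hearts no further.

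The largest difference downward was that of Cobl, a neighbour of Grb10 that encodes an actin nucleator. Cobl stood at 2.42, 2.34 and 3.77 FPKM in double-mutant libraries 4, 5 and 6 and at 5.72, 6.13 and 4.03 in control libraries 1, 2 and 3. All double mutants lay below all controls (log2 difference -0.66, 95% interval -1.07 to -0.25, adjusted p = 0.26 by limma). Upward it was Snrpn, a paternally expressed gene of a splicing protein, at 14.9, 14.8 and 11.3 FPKM in the double mutants and 11.1, 8.70 and 10.5 in the controls. The deposited Snrpn values did not overlap, but the scaled values did (log2 difference 0.46, 95% interval 0.06 to 0.86, adjusted p = 0.36 by limma).

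The other genes of these ranks had smaller differences. Above 0 were Gatm, an enzyme gene of creatine synthesis (0.27), Blcap (0.25), H13, a signal peptide peptidase gene (0.24), and Kcnq1, a potassium channel gene beside Cdkn1c (0.24). Below 0 were Osbpl5, a lipid transfer protein gene (-0.29), Igf2r, whose receptor clears IGF2 (-0.21), Zfp64 (-0.17) and Cd81 (-0.14). None of these passed, the lowest adjusted p among them being 0.42 by limma. Airn, the noncoding RNA that overlaps Igf2r on the other strand, was listed at 0 in library 3, and Inpp5f at 0 in libraries 4, 5 and 3.

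**Figure D5:**
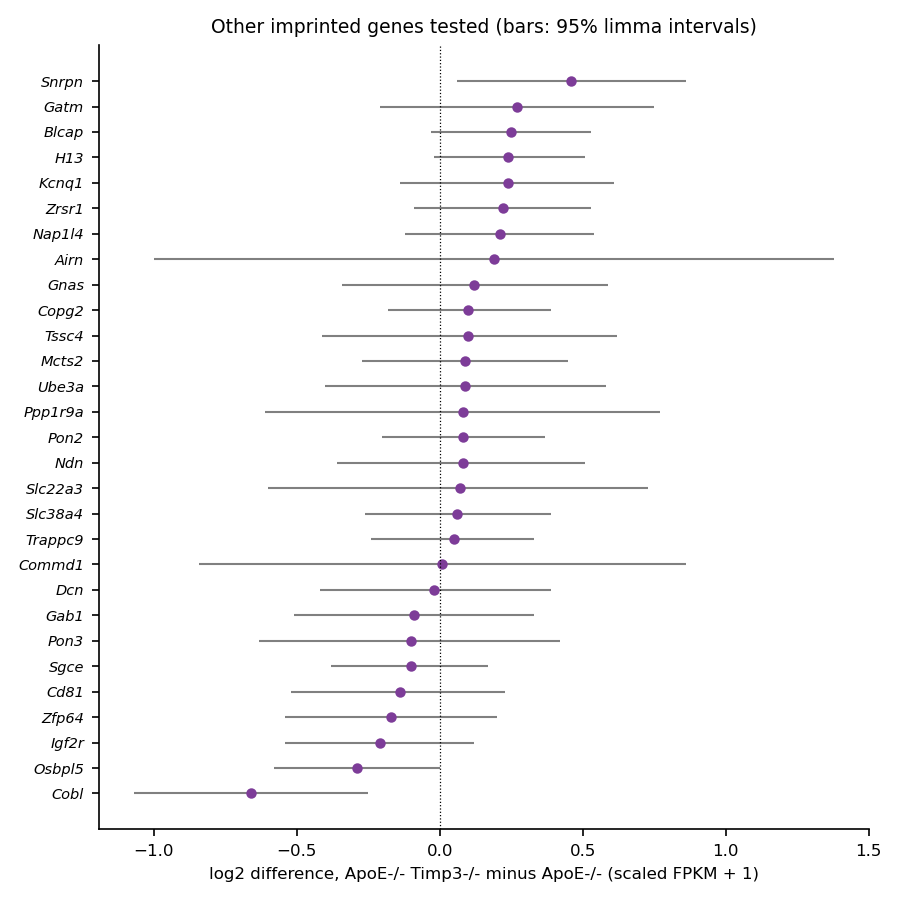
Log2 difference of scaled FPKM, double mutants minus controls, of the 29 other imprinted genes tested, with 95% limma intervals as bars. Cobl at -0.66 and Snrpn at 0.46 are the genes whose intervals lie farthest from 0, and neither passed over all genes.

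The neighbours of the listed genes in their domains did not pass either. Of 33 neighbours, 26 were in the files and 10 entered the test, of which 7 are also among the 29 genes above, Cobl included. Their median log2 difference was 0.22, 8 above 0 and 2 below, and the lowest adjusted p was 0.26 by limma, that of Cobl. All tested genes had a median of -0.01, with 48.8% above 0. Beside H19, Mrpl23, a mitochondrial ribosome gene, had a log2 difference of 0.49 (adjusted p = 0.47 by limma). Tssc4 (0.10) and Nap1l4 (0.21), near Cdkn1c, and Ctnnbl1 (0.25), next to Nnat, were also above 0. Phactr2, next to Plagl1, was listed at 1.75, 1.53 and 4.30 FPKM in the double mutants and at 0, 2.92 and 2.65 in the controls. In library 1, where Phactr2 was listed at 0, 1 of its 6 reference transcripts was marked fully supported.

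The IGF axis around Igf2 and Grb10 comprised 21 genes, of which 13 were tested and none passed, with 6 above 0 and 7 below and a median of -0.04. Irs2, an adaptor of the insulin and IGF1 receptors, stood at 3.52, 3.56 and 2.21 FPKM in double-mutant libraries 4, 5 and 6 and at 1.58, 1.06 and 1.20 in control libraries 1, 2 and 3. All double mutants lay above all controls (log2 difference 0.89, 95% interval 0.44 to 1.33, adjusted p = 0.24 by limma). The binding protein genes Igfbp6 and Igfbp7 had log2 differences of -0.42 and -0.54, and Igfbp3 of 0.30, none of them past the test.

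Among 16 genes of the Cip/Kip family and the G1 phase of the cell cycle, the setting in which Cdkn1c acts, 10 were tested and none passed. Their median was -0.28, with 8 of 10 below 0. All 11381 tested genes had a median of -0.01, with 5826 below 0. Ccnd2, a cyclin D gene, stood at 11.6, 10.4 and 15.4 FPKM in double-mutant libraries 4, 5 and 6 and at 19.2, 18.8 and 17.4 in control libraries 1, 2 and 3. The groups did not overlap (log2 difference -0.48, adjusted p = 0.28 by limma), but on reference transcripts alone the difference was 1.34, so the direction rests on the assembled transcripts. Ccnd1 had a difference of -0.64, Ccnd3 of -0.30 and Cdkn2c, which encodes an inhibitor of CDK4 and CDK6, of -0.36. Fibroblast markers summed to 641 to 762 scaled FPKM in the double mutants and 707 to 841 in the controls, and endothelial markers to 184 to 228 and 207 to 268, and their part in these lists was not tested.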

How the data were processed

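Total RNA of 6 hearts was sequenced, 3 per genotype, and groups follow the genotype labels. The authors deposited 1 transcript file per library with FPKM, an interval, coverage and a full-support mark as other attributes of each transcript, per the file headers and attributes. Per the submitters' processing notes, the tools were TopHat, Bowtie and Cufflinks and the build NCBIM37; versions and strand settings are not stated there. The files hold no counts, so no count test was run. Reads per gene are unknown, and no counting interval is given.

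Of 94670 reference transcripts, 82348 were joined to genes by transcript ID, 5266 through the deposited gene ID and 6235 by overlapping exons. Of 70603 assembled transcripts, 39103 of at least 300 nt were added to a gene on the same or an unknown strand. Each shared at least 50% of its own exonic bases, or of those of the gene. They carried much of the signal: assembled models took 34.0% to 39.6% of a library. FPKM were scaled by the median of ratios. limma 3.58.1 (R 4.3.3, intensity trend, two-sided) was then run on log2(scaled FPKM + 1) for the 11381 genes with a mean of at least 1 FPKM and a transcript of at least 300 nt, with Benjamini-Hochberg adjustment at 0.05. The log2 scale with this pseudocount understates the change of low genes.

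The members and all lists were chosen with earlier results of these data known. Named were the listed genes, tested domain genes, the 5 largest differences in each direction among other imprinted genes, the 4 smallest p of the IGF and G1 lists, the 2 closest profiles per gene with a mean of at least 1 FPKM and no library at 0, the targeted genes, and hosted microRNA genes. A gene that this rule takes is not reported here. The relation to depth was added after the data were seen. Promoter and microRNA sequences are from RefSeq (GRCm38.p6), and transcripts were matched to windows by their first 20 bases. All other coordinates are NCBIM37, from the files. Alternatives changed 1 choice at a time: scaling, pseudocount, filter, transcripts summed, trend, library weights, genes with zeros, and each library left out.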

Additional observations from a re-analysis of the deposited data

How the results depend on the processing

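Over all genes, 5 passed limma in the fit reported. The count was 3 with a pseudocount of 0.1, 9 with a mean of at least 0.1 FPKM, 9 without a filter, 103 with library weights and 0 without genes listed at 0, and it ran from 3 to 11 with 1 library left out. None of the lists outside the 10 genes had a gene past the threshold in any of these settings. Of the named genes outside the listed 10, 9 values turned their sign. Cd81 was at 0.09 on the strongest transcript. Copg2 was at -0.09 on reference transcripts and -0.59 on the strongest. Tssc4 ran from -0.05 (without library 4) to 0.33 with 1 library left out. Phactr2 was at -0.25 on reference transcripts, -0.25 on the strongest and -0.20 without library 1. Ccnd2 was at 1.34 and 1.33 on reference and strongest transcripts. Among the listed genes, the log2 difference of Igf2 ran from 0.38 to 0.81 with 1 library left out and was 1.39 on the strongest transcript. Meg3 ran from -0.07 to 0.22, Peg3 from -0.13 to 0.37, Plagl1 from -0.17 to 0.34 and Cdkn1c from -0.33 to 0.15 with 1 library left out, so their directions rest on single libraries. Grb10 was at 0.05 on reference transcripts. With those alone, Mest was at 0 FPKM in control library 1 as well as in the double mutants. H19 (0.16 to 0.78) and Nnat (0.02 to 0.35) stayed above 0. The cause was not tested. No paired analysis was possible because the labels share no replicate number between the genotypes. Reads per gene are unknown.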
